A study of Homo sapiens with 24 samples.

Results

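The comparison set 2 acute myeloid leukaemia cell lines against each other, KG1a and MOLM14, both of which the sample labels place in the class of high oxidative phosphorylation. Its members were the 3 untreated KG1a arrays and the 3 untreated MOLM14 arrays, 6 of the 24 arrays of the series, chosen by their labels for line and treatment and not by any measured value. The series holds 4 lines (HL60, KG1a, MOLM14 and U937), each untreated or given 10 mM metformin for 24 h, with replicates A, B and C of each condition, on Affymetrix whole-transcript arrays hybridised with cRNA made from 250 ng of total RNA. HL60 and U937 carry the label of low oxidative phosphorylation, as do metformin-treated KG1a and MOLM14 in a second label. Its stated aim was a gene signature of high oxidative phosphorylation, for which the distance between the 2 high lines is a measure of the spread inside that class. No genotype, transgene or other agent is given for any line. Each line is a single cultured line from 1 patient's leukaemia, so a difference belongs to these lines and cannot be assigned to a class of leukaemia. The labels do not say whether replicates came from separate cultures, and p-values then measure only the spread between these arrays, which may be technical.

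KG1a is a line of very immature myeloid cells that carry the progenitor antigen CD34. MOLM14 is a monocytic line known for an internal tandem duplication in the receptor tyrosine kinase FLT3 and for a fusion of the KMT2A gene. Oxidative phosphorylation is the making of ATP by the respiratory chain of the inner mitochondrial membrane: complexes I to IV pass electrons from NADH and succinate to oxygen, and the ATP synthase uses the proton gradient that results. The tricarboxylic acid cycle and fatty acid oxidation supply those electrons, and glycolysis makes ATP without them. In normal blood formation, CD34 and the progenitor transcription factors are lost as granulocyte and monocyte precursors take up the granule proteases, lysozyme and the factors SPI1 (PU.1) and IRF8.

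All values below are log2 signal as deposited, so a difference of 1 is a 2-fold difference. Across all rows, replicate arrays of 1 line correlated at 0.989 to 0.991 and arrays of the 2 lines with each other at 0.906 to 0.908, and the medians of all 24 arrays lay between 3.99 and 4.08. Of 14884 genes with a named row, 10641 were kept because at least 1 of the 8 group means reached 4.02, the median of all values. Subunits of complexes I and II and the genes of mitochondrial DNA are not analysed here. Known markers of each line were present: CD34 and CD7 were higher in KG1a, and LYZ and CD68 in MOLM14. Several defining monocyte markers were nonetheless low in MOLM14. CD14 was on the arrays but below the filter, at 3.72 in KG1a and 3.63 in MOLM14, FCN1 lay at 4.23 in KG1a and 4.37 in MOLM14 without passing the test, and TLR4 was below the median of all values in both lines.

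The 2 lines of the high class differed over most of the genes measured. A total of 6497 of 10641 genes (61.1%) passed an adjusted p of 0.05 in limma's moderated test with Benjamini-Hochberg adjustment. Of these, 3363 (31.6%) were higher in KG1a and 3134 (29.5%) were higher in MOLM14, and the median difference over all kept genes was 0.01 with a median SE of 0.11. Differences of at least 2-fold that also passed the test numbered 1995 (18.7%), 1061 higher in KG1a (9.97%) and 934 higher in MOLM14 (8.78%). The untreated lines of the low class, HL60 and U937, differed by that measure at 1334 genes (12.5%). The KG1a and MOLM14 arrays did not overlap at 6991 genes (65.7%). Close values were also common, since the 95% interval of the difference lay within 0.5 of 0 for 4293 genes (40.3%). Many of the large differences ran between a clear signal and one near the floor of the array. MOLM14 lay under 4.02 for 418 of the 1061 genes, and KG1a lay under it for 380 of the 934, so the fold of such a gene understates its ratio.

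**Figure D1:**
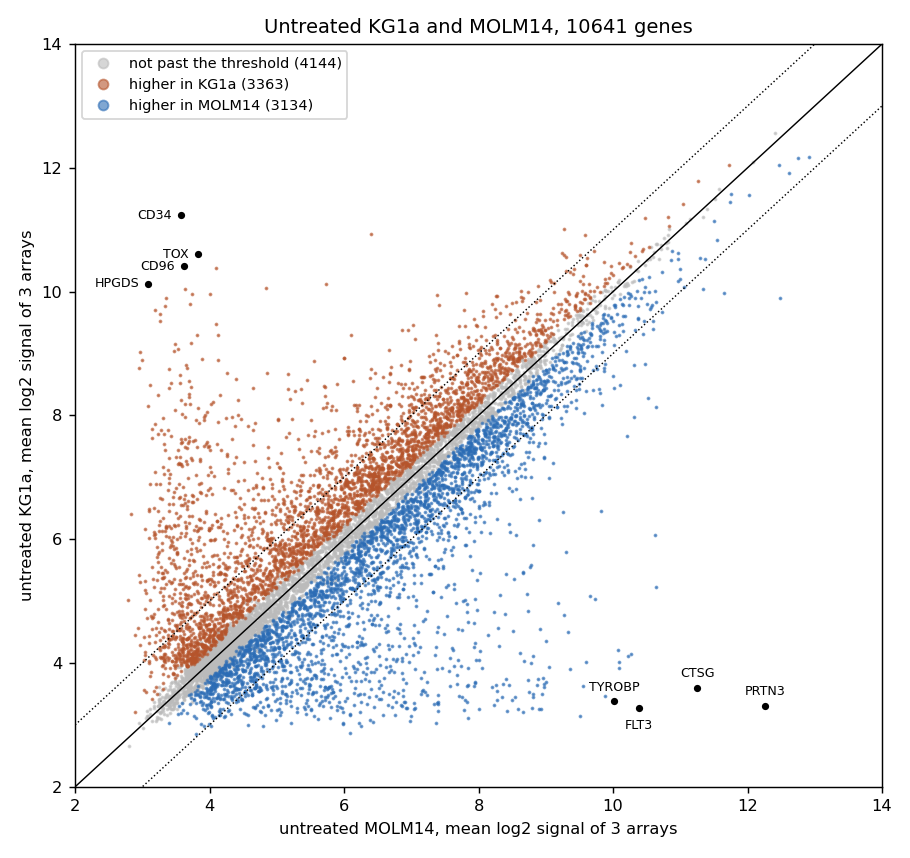
Mean log2 signal of 3 untreated MOLM14 arrays (x axis) against that of 3 untreated KG1a arrays (y axis) for 10641 genes, with genes past the threshold in colour. The solid line marks equal signal and the dotted lines a 2-fold difference. The labelled genes in the corners, CD34 in KG1a and PRTN3 in MOLM14 among them, lie near the floor in the other line.

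Genes of energy production, on which the shared class label bears, differed between KG1a and MOLM14 in both directions. Oxygen use itself was not measured in these data. Of 30 subunits listed for complexes II, III and IV, 20 had a named row and 17 were kept. All 17 belong to complexes III and IV, so complex II subunits are not covered. Of these 17, 2 were higher in KG1a, 8 were higher in MOLM14 and 7 did not pass the test. That is 58.8% called against 61.1% of all genes. None of the 17 differed by 2-fold or more, where 18.7% of all genes did, and their median difference was -0.13. COX5B, a cytochrome c oxidase subunit, read 5.62, 5.22 and 5.42 in KG1a and 6.33, 6.34 and 6.51 in MOLM14. The arrays did not overlap, with a difference of -0.98 ± 0.15 (SE, adjusted p = 3.1e-06). COX7A2 differed by -0.84 ± 0.10 and CYC1, the cytochrome c1 of complex III, by -0.52 ± 0.08. COX6C ran the other way at 0.41 ± 0.11. UQCRB was higher in KG1a by 0.34 (adjusted p = 0.031) and lost that call when KG1a replicate B or C or MOLM14 replicate B was left out, with adjusted p from 0.062 to 0.142. COX6A1 had the same mean of 10.8 in both lines. At none of these 17 subunits were KG1a and MOLM14 the 2 extremes of the 4 untreated lines. Over all kept genes that share was 19.4%. KG1a and MOLM14 both exceeded HL60 and U937 at 4 of the 17 and both lay below at 4, against 13.4% and 18.9% of all kept genes.

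Of 19 ATP synthase genes listed, 3 were measured under a gene name, and all 3 passed the test. ATP5MK, a small membrane subunit that helps the enzyme form dimers, read 6.97, 7.10 and 6.98 in KG1a and 8.75, 8.53 and 8.62 in MOLM14, a difference of -1.62 ± 0.08 or 3.07-fold. ATP5IF1, the inhibitor that stops the synthase from running backwards, was higher in KG1a by 0.65, and ATP5MJ by 0.43. The 45 kept assembly factors of the respiratory chain divided almost evenly, with 15 higher in KG1a, 13 higher in MOLM14 and a median difference of 0.001. That is 62.2% called against 61.1% of all genes. ATPAF1, a chaperone of the synthase's catalytic head, stood out in this list. It read 7.22, 7.21 and 7.09 in KG1a against 4.76, 4.85 and 5.03 in MOLM14, a 4.89-fold difference. LYRM7 and SDHAF3, which insert iron-sulphur clusters into complexes III and II, were higher in MOLM14 by 2.38-fold and 2.13-fold, while SDHAF2, which adds the flavin to complex II, was higher in KG1a by 2.09-fold.

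Of 31 genes listed for the tricarboxylic acid cycle and the enzymes that feed it, 12 had a named row, and all 12 were kept. They divided by enzyme, 6 higher in KG1a and 4 higher in MOLM14 (83.3% called against 61.1% of all genes). Their median difference was 0.08. Citrate synthase (CS), the entry step of the cycle and a common measure of mitochondrial content, read 8.14, 7.84 and 7.89 in KG1a and 9.25, 9.10 and 9.31 in MOLM14. All 3 KG1a arrays lay below all 3 MOLM14 arrays, and the difference was -1.26 ± 0.11 (adjusted p = 2.8e-10). CS averaged 9.02 in HL60 and 8.61 in U937, so the 2 high lines held the lowest and the highest mean of the 4. KG1a and MOLM14 were the 2 extremes at 4 of the 12 kept genes of this list and at 19.4% of all kept genes. They were the extremes at 3 of 17 kept genes of fatty acid oxidation and 1 of 9 of glycolysis. For the mitochondrial ribosome the count was 13 of 74, and for the assembly factors 10 of 45. The CS locus lies in a series of 20 successive kept protein-coding genes in RefSeq order, TMT1B to PAN2, that were all higher in MOLM14 (median difference -0.86). The part of that neighbourhood in the CS difference was not tested. DLST, the succinyl-transferase of the 2-oxoglutarate dehydrogenase complex, ran the other way. It read 8.17, 8.10 and 8.20 in KG1a and 6.74, 6.89 and 6.89 in MOLM14, 2.49-fold higher in KG1a. PDHB, a subunit of pyruvate dehydrogenase, and PDP1, the phosphatase that activates it, were each 1.63-fold higher in KG1a. DLD and OGDH were higher in MOLM14 by 0.59 and 0.42 on the log2 scale.

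Fatty acid oxidation held the widest spread among the energy lists. Of 33 genes listed, 18 had a named row and 17 were kept. Of these 17, 4 were higher in KG1a and 8 in MOLM14 (70.6% called against 61.1% of all genes). All 4 of the first and 4 of the second differed by at least 2-fold, where 18.7% of all genes did. ECI2, an isomerase that lets unsaturated fatty acids enter the pathway, read 8.28, 8.23 and 8.23 in KG1a and 3.74, 3.51 and 3.47 in MOLM14. That 25.6-fold difference placed MOLM14 at the floor, and HL60 and U937 averaged 6.84 and 7.26. CPT1A, the carnitine transferase that controls entry of fatty acids into mitochondria, read 9.69, 9.61 and 9.75 in KG1a and 7.97, 8.16 and 8.08 in MOLM14, 3.06-fold higher in KG1a. The enzymes on either side of it went the other way. ACSL1, which activates fatty acids with coenzyme A, was 7.59-fold higher in MOLM14, and CPT2, which receives the acyl group inside the mitochondrion, was 2.45-fold higher there. CD36, a fatty acid importer and monocyte antigen, was 3.75-fold higher in MOLM14.

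Glycolysis genes also differed in both directions. Of 35 genes listed, 12 had a named row and 9 were kept, so most of the pathway is not covered. Of these 9 kept genes, 4 were higher in KG1a and 3 in MOLM14 (77.8% called against 61.1% of all genes). HK1, the hexokinase bound to mitochondria, read 6.35, 6.35 and 6.42 in KG1a and 5.23, 5.15 and 5.19 in MOLM14, 2.27-fold higher in KG1a, and HK2 was 1.56-fold higher. PGAM1 and LDHB were higher in MOLM14 by 1.76-fold and 1.51-fold. LDHA was higher in KG1a by 0.32 (adjusted p = 0.021) and PGK1 higher in MOLM14 by 0.17 (adjusted p = 0.035). Both calls were lost under other settings: LDHA's without KG1a replicate A (adjusted p = 0.101) or MOLM14 replicate B (adjusted p = 0.108), and PGK1's under 8 of the settings tried, with adjusted p from 0.0516 to 0.0901. KG1a and MOLM14 both lay below HL60 and U937 at 5 of these 9 genes and above both at 0, against 18.9% and 13.4% of all kept genes.

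The mitochondrial ribosome makes the respiratory chain subunits that mitochondrial DNA encodes. Of its 74 kept genes, 35 were higher in MOLM14, 13 were higher in KG1a and 26 did not pass the test (64.9% called against 61.1% of all genes), with a median difference of -0.18. The differences were small, with 35 of the 74 within 0.5 of 0 by their 95% interval and 4 past 2-fold. Over all genes those shares were 40.3% and 18.7%. MRPL44 was 3.11-fold and MRPS30 2.66-fold higher in MOLM14, and MRPL49 was 2.30-fold higher in KG1a. KG1a and MOLM14 both lay below HL60 and U937 at 25 of the 74 and above both at 4, against 18.9% and 13.4% of all kept genes. TWNK, the helicase that unwinds mitochondrial DNA, was 2.22-fold higher in MOLM14. MTERF3, a repressor of mitochondrial transcription, was 1.65-fold higher in KG1a. Among 28 kept genes of redox defence, 8 were higher in KG1a and 12 in MOLM14 (71.4% called against 61.1% of all genes). The mitochondrial peroxiredoxin PRDX3 was 1.97-fold higher in MOLM14, and the cytosolic PRDX1 was 2.50-fold higher in KG1a. GPX1, a glutathione peroxidase, was 2.50-fold higher in MOLM14.

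**Figure D2:**
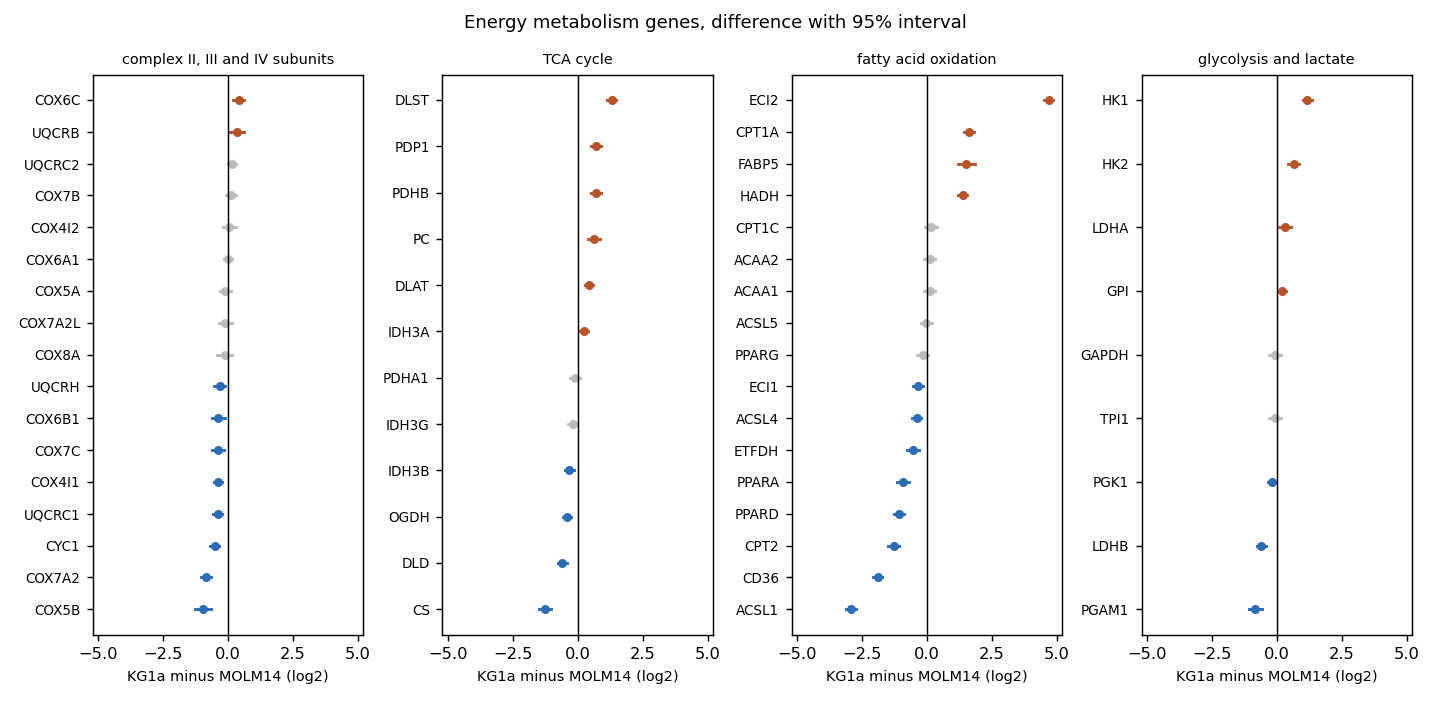
Differences between untreated KG1a and MOLM14 (x axes, log2, positive where KG1a is higher) for the kept genes of 4 energy lists, each point the difference of 3 against 3 arrays and each bar its 95% interval. Grey genes did not pass the test. The respiratory chain subunits, all of complexes III and IV, lie between -0.98 and 0.41, while ECI2 at 4.68 and ACSL1 at -2.92 span the widest range.

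The largest difference in favour of KG1a was that of a progenitor gene. CD34, the sialomucin of blood stem and progenitor cells, read 11.27, 11.18 and 11.26 in KG1a and 3.60, 3.59 and 3.52 in MOLM14. The difference of 7.67 ± 0.13 (203-fold, adjusted p = 1.4e-24) was the largest on the KG1a side, and HL60 and U937 lay at 3.61 and 3.53. Of 23 kept stem and progenitor surface genes, 15 were higher in KG1a and 5 in MOLM14 (87% called against 61.1% of all genes). Their median difference was 0.56, against 0.01 over all genes. CD96, an immunoglobulin-family receptor of T and natural killer cells that also marks leukaemic progenitors, read 10.30, 10.44 and 10.48 in KG1a and 3.46, 3.89 and 3.50 in MOLM14. ESAM, an endothelial and stem cell adhesion molecule, was 18.1-fold higher in KG1a, CD7 9.70-fold and the hyaluronan receptor CD44 3.91-fold. PROM1, also called CD133, sat at 4.02 in KG1a and 3.64 in MOLM14, close to the floor in both. KIT, the stem cell factor receptor, did not pass the test at 4.17 and 4.24.

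The surface list also held strong genes on the MOLM14 side. FLT3, the receptor tyrosine kinase of progenitors, read 3.17, 3.35 and 3.31 in KG1a and 10.29, 10.42 and 10.44 in MOLM14, a 137-fold difference. HL60 and U937 lay at 3.64 and 3.35, so MOLM14 alone of the 4 lines had a clear FLT3 signal. CXCR4, the chemokine receptor that holds progenitors in the marrow, was 25.1-fold higher in MOLM14. CD38, an enzyme gained as progenitors mature, was 6.87-fold higher there, and IL1RAP was 2.43-fold higher.

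A list of progenitor transcription factors and associated genes was higher in KG1a at 27 of 37 kept members and in MOLM14 at 7 (median difference 0.78), against 31.6% and 29.5% of all genes. Not all members are factors: the list also holds ARHGAP22, CDK6, DNMT3B, LAPTM4B, MMRN1, NYNRIN, SMIM24 and SOCS2. ERG, an ETS factor of stem cells, read 7.40, 7.37 and 7.18 in KG1a and 3.34, 3.36 and 3.48 in MOLM14, a 15.2-fold difference. GATA2 and HOPX, regulators of stem cell quiescence, were each 4.20-fold higher in KG1a. LEF1, which carries Wnt signals to DNA, was 18.5-fold higher. SMIM24 and MMRN1 were higher by 35.8-fold and 34.5-fold. On the MOLM14 side, MYB was 1.73-fold and GFI1, a repressor of transcription, 2.47-fold higher. RUNX1 and IKZF1 did not pass the test, at 6.38 against 6.31 and 8.50 against 8.41.

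The other leading KG1a genes came from several lineages. HPGDS, the blood cell prostaglandin D synthase, read 10.04, 10.21 and 10.13 in KG1a and 3.00, 3.09 and 3.16 in MOLM14. TOX, a chromatin factor of T cell development, read 10.59, 10.59 and 10.64 against 3.83, 3.84 and 3.81. RHAG, the Rh-associated glycoprotein of red cells, read 10.09, 9.93 and 9.88 against 3.80, 3.61 and 3.79. None of these arrays overlapped, and each gene had 1 group of 3 near the floor. HGF, the hepatocyte growth factor, differed by 6.27 and CALCRL, the receptor for adrenomedullin, by 6.37. GFRA1 (a growth factor co-receptor), NETO1 (a partner of kainate receptors) and PCDH10 (a protocadherin) differed by 6.53, 6.43 and 6.41. KIAA0087, a long non-coding RNA (6.52), SLA2, an adaptor that dampens T cell receptor signals (6.29), and ITM2A (6.08) filled the same range. For 14 of the 15 leading KG1a genes the MOLM14 mean lay under 4.02, and for 9 the HL60 and U937 means lay under it too. PROSER1 was the exception in the other direction: MOLM14 lay at 4.06, 4.02 and 3.96 while KG1a, HL60 and U937 averaged 9.96, 10.44 and 9.65.

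The 2 largest differences in favour of MOLM14 were those of granule proteases. PRTN3, the neutrophil proteinase 3, read 3.31, 3.31 and 3.30 in KG1a and 12.31, 12.29 and 12.20 in MOLM14. Its difference of -8.96 ± 0.07 (498-fold, adjusted p = 1.7e-30) was the largest of all 10641 genes. Cathepsin G (CTSG) read 3.45, 3.61 and 3.72 in KG1a and 11.24, 11.23 and 11.28 in MOLM14. Azurocidin (AZU1), a neighbour of PRTN3, was 67.5-fold higher in MOLM14. HL60 and U937 were also high for PRTN3, at 11.36 and 11.82, so KG1a was the line without it. MPO, the myeloperoxidase, read 3.18, 3.27 and 3.33 in KG1a and 8.92, 8.96 and 8.92 in MOLM14, between HL60 at 12.5 and U937 at 3.30. Of 16 kept granule genes, 7 were higher in MOLM14, all by at least 2-fold, and 2 in KG1a (56.2% called against 61.1% of all genes). Over all genes, 8.78% were at least 2-fold higher in MOLM14. The 2 granule genes higher in KG1a were CPA3, a mast cell carboxypeptidase (26.8-fold), and HGF. The 7 that did not pass the test included CAMP at 4.62 and 4.67 and LCN2 at 4.08 and 3.97, proteins of later granules.

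Of 25 kept monocyte and macrophage markers, 21 were higher in MOLM14 and 1 in KG1a (88% called against 61.1% of all genes). Their median difference was -1.94. TYROBP, the signalling adaptor of myeloid receptors, read 3.50, 3.37 and 3.26 in KG1a and 10.15, 9.98 and 9.91 in MOLM14. Lysozyme (LYZ) read 3.41, 3.47 and 3.50 against 9.81, 9.89 and 9.93. CD68, a lysosomal protein of macrophages, was 25.9-fold higher in MOLM14 and the protease inhibitor CSTA 29.9-fold. MNDA, a nuclear antigen of myeloid cells, was 9.86-fold higher, and CSF1R, the macrophage growth factor receptor, 3.28-fold. The exception was MSR1, a scavenger receptor, 2.67-fold higher in KG1a.

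The transcription factors of that programme ran the same way as its markers at 12 of 20 kept genes, against 4 higher in KG1a. That is 80% called against 61.1% of all genes. IRF8, which directs cells to the monocyte fate, read 3.95, 4.32 and 4.06 in KG1a and 10.12, 10.33 and 10.22 in MOLM14, a 69.0-fold difference. SPI1, the ETS factor PU.1, read 4.66, 4.62 and 4.67 against 7.98, 7.94 and 7.89 and was 9.79-fold higher in MOLM14. ZEB2 was 5.62-fold and KLF4 1.91-fold higher in MOLM14, the latter from 4.02 in KG1a. TFEC, STAT3 and RELB were higher in KG1a by 1.38, 0.94 and 0.47. The rest of the leading MOLM14 genes were BTK, a kinase of B and myeloid cell receptors (60.9-fold), TASL, an adaptor of endosomal Toll-like receptors (82.1-fold), DACH1, a nuclear repressor (72.3-fold), PDLIM1, a cytoskeletal adaptor (69.4-fold), ANXA4, a membrane-binding annexin (57.7-fold), LGR4, a receptor for R-spondins (49.7-fold), and GPR183, an oxysterol receptor (48.3-fold). The KG1a mean lay under 4.02 for 12 of the 15 leading MOLM14 genes. HL60 and U937 both averaged at least 7 for 5 of them.

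**Figure D3:**
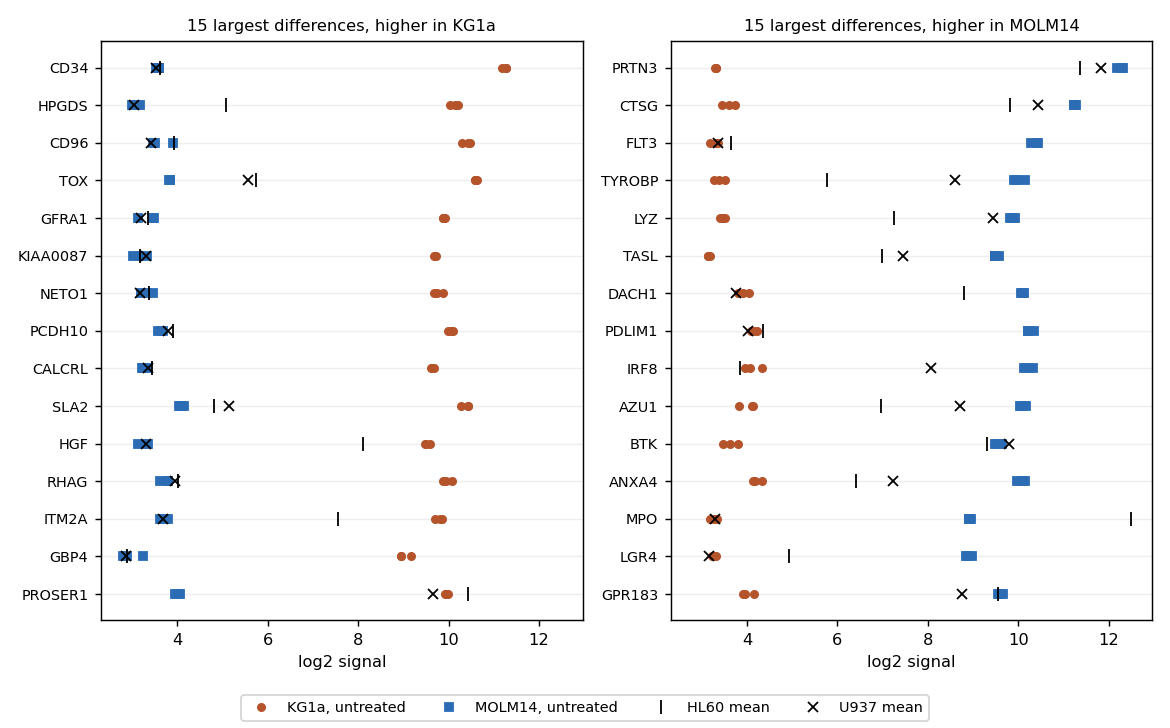
Log2 signal (x axes) of the 15 largest differences in each direction, 3 untreated KG1a arrays as circles and 3 untreated MOLM14 arrays as squares, with the untreated HL60 and U937 means as a bar and a cross. No gene's KG1a and MOLM14 arrays overlap. FLT3 is high in MOLM14 alone of the 4 lines, PRTN3 is low in KG1a alone and PROSER1 in MOLM14 alone.

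PU.1 binds purine-rich sequence with a GGAA core, and its classic sites contain GAGGAAGT. That motif was searched on both strands in the 250 bases before each start site of the RefSeq promoter table (GRCh38.p14). It occurred in 3 of the 13 leading MOLM14 genes with a listed promoter (PRTN3, TYROBP and BTK), in 0 of the 12 leading KG1a genes with one, and in 2.65% of all 27305 genes with a promoter (2.17% of all 35116 promoters). The 3 are shown because their genes were higher in MOLM14, the line with more SPI1, each from 30 bases before its first match toward the start site, on the gene's strand, with matches in capitals. Among kept genes with a promoter the motif occurred in 238 of 8077 (2.95%). The leading genes and the motif were chosen after values were seen, so these counts are not a test. A match is a description of the letters and not evidence of binding. PRTN3 is taken from chr19:840881-840998 on the plus strand, TYROBP from chr19:35908296-35908337 on the minus strand, and BTK from chrX:101390797-101390997 on the minus strand.
PRTN3: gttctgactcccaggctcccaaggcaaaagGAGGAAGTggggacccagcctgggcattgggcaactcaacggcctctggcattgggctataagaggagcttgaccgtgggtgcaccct
TYROBP: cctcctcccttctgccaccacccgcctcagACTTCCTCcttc
BTK: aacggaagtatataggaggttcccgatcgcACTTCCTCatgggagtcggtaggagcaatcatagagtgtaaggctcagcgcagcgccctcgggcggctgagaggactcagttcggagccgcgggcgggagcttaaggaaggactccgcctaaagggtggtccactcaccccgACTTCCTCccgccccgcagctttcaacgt

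Interferon-inducible genes were the list with the largest median difference toward KG1a. Of 37 kept, 26 were higher in KG1a, 9 in MOLM14 and 2 did not pass the test (94.6% called against 61.1% of all genes), with a median of 1.16. At 2-fold or more, 20 of the 37 were higher in KG1a and 2 in MOLM14, against 9.97% and 8.78% of all genes. GBP4, a guanylate-binding protein of the interferon-gamma response, read 8.95, 8.94 and 9.17 in KG1a and 2.80, 2.89 and 3.23 in MOLM14, a 66.4-fold difference. IFI44 read 8.52, 8.23 and 8.30 against 3.61, 3.96 and 3.53, and the antiviral enzyme RSAD2 read 8.70, 8.72 and 8.63 against 4.05, 4.48 and 4.24. HL60 and U937 lay below 4 for all 3 genes, so KG1a alone had a clear signal. IFITM1 (8.56 against 5.45), IFIT3 (5.85 against 3.79) and the viral RNA sensor IFIH1 (7.16 against 5.04) were also higher in KG1a.

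The exceptions in that list were sharp. SAMHD1, which degrades deoxynucleotides in myeloid cells, read 5.00, 4.58 and 4.75 in KG1a and 9.26, 9.19 and 9.39 in MOLM14, 22.6-fold higher in MOLM14. XAF1, a pro-apoptotic partner of XIAP, was 4.38-fold and the RNA sensor RIGI 1.87-fold higher there. IRF7, the master factor of type I interferon, was low in both lines, at 3.87 in KG1a and 4.49 in MOLM14. IRF9, part of the factor that interferon activates, was higher in KG1a (6.88 against 5.30). IFNGR1 and IFNGR2, the chains of the interferon-gamma receptor, were higher in MOLM14, at 7.37 against 6.88 and 6.57 against 6.20.

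Interferon-stimulated genes are bound through a response element with GAAA, any 2 bases, and GAAA again. Searched in the same way on both strands, it was present in 15 of the 28 list members with a listed promoter, against 3.71% of all genes with a promoter (3.02% of all promoters). All 15 of these members were higher in KG1a, with a median difference of 1.92. Of the 13 members without the motif, 8 were higher in KG1a and 4 in MOLM14, with a median of 0.85. Both groups were part of a list chosen for interferon response, and their difference was not tested. Shown are 4 of the 15, with matches in capitals, as examples of the arrangement in genes that were high in KG1a: IFI44 from chr1:78649741-78649788 on the plus strand, IFIT3 from chr10:89327811-89327996 on the plus strand, ISG15 from chr1:1013354-1013496 on the plus strand, and IFITM3 from chr11:320861-320942 on the minus strand. Overlapping matches appear as 1 longer run of capitals.
IFI44: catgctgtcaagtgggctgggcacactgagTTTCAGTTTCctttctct
IFIT3: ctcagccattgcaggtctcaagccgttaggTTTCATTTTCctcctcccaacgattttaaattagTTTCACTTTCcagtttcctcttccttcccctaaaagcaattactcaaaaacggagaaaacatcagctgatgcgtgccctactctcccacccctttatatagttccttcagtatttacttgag
ISG15: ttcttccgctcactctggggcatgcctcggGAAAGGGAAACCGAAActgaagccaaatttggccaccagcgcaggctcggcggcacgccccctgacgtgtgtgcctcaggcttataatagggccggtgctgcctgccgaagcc
IFITM3: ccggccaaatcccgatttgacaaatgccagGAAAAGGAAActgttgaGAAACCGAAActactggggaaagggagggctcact

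The differences at these 4 genes were 4.65 for IFI44, 2.06 for IFIT3, 0.30 for ISG15 (adjusted p = 0.046) and 1.91 for IFITM3. IFITM1, IFITM2 and IFITM3 are close copies of each other, and their probes may share signal, so their values are uncertain.

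Growth factor receptors and the signalling feedback genes below them differed in both directions. Of 23 kept receptor tyrosine kinases, 11 were higher in MOLM14 and 8 in KG1a (82.6% called against 61.1% of all genes). Beside FLT3, the kinase RET read 3.23, 3.65 and 3.59 in KG1a and 8.98, 8.93 and 8.92 in MOLM14, a 43.8-fold difference, and the insulin receptor INSR was 6.76-fold higher in MOLM14. KG1a was higher for FLT1, a receptor for vascular endothelial growth factor, by 12.0-fold, and for MERTK by 3.60-fold. FGFR1, a fibroblast growth factor receptor, was 2.30-fold higher in MOLM14. Of 28 kept feedback genes of the MAP kinase and STAT5 pathways, 14 were higher in MOLM14 and 9 in KG1a (82.1% called). EGR1 (4.93-fold), SOCS2 (4.39-fold) and ETV4 (4.08-fold) were higher in MOLM14. PIM1, a STAT5 target kinase, read 9.42, 9.36 and 9.36 in KG1a and 7.09, 6.71 and 7.03 in MOLM14, 5.41-fold higher in KG1a, and the phosphatase DUSP6 was 3.21-fold higher there.

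Of 30 kept cytokine receptors, 16 were higher in MOLM14 and 8 in KG1a (80% called against 61.1% of all genes). IL17RA, the interleukin-17 receptor, was 23.6-fold higher in MOLM14, the fractalkine receptor CX3CR1 6.82-fold and the granulocyte factor receptor CSF3R 2.53-fold. Both chains of the interleukin-18 receptor were higher in KG1a: IL18RAP read 9.16, 9.22 and 9.12 against 3.65, 3.63 and 3.89, and IL18R1 was 4.92-fold higher. Interleukin-18 itself (IL18) was higher in KG1a by a smaller margin, 8.20 against 7.77. Among 26 kept cytokines, tumour necrosis factor (TNF) read 4.33, 4.15 and 4.03 in KG1a and 8.65, 8.67 and 8.51 in MOLM14, 21.7-fold higher in MOLM14, and the chemokine CCL5 was 8.15-fold higher. IL32 and IL16 were higher in KG1a by 16.5-fold and 4.47-fold.

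Genes of innate sensing, antigen presentation and the lysosome differed in both directions, with 9 of 22, 9 of 12 and 14 of 26 kept genes higher in MOLM14 and 7, 2 and 6 higher in KG1a. The shares called were 72.7%, 91.7% and 76.9%, against 61.1% of all genes. PYCARD, the inflammasome adaptor, read 3.73, 3.55 and 3.56 in KG1a and 9.02, 8.98 and 8.92 in MOLM14, a 41.1-fold difference. LY86 and CD180, which form a receptor complex related to TLR4, were 35.3-fold and 12.7-fold higher in MOLM14, and TLR2 was 8.27-fold higher. KG1a was higher for TLR3, the sensor of double-stranded RNA, by 3.77-fold, and for the adaptor TIRAP by 3.27-fold. The protease CTSS was 18.6-fold higher in MOLM14. CTSW, a cathepsin of cytotoxic lymphocytes, read 9.47, 9.45 and 9.50 in KG1a and 4.07, 4.24 and 3.99 in MOLM14, and CTSC was 3.34-fold higher in KG1a. Of 40 genes listed for HLA and antigen presentation, 16 had a named row and 12 were kept. No HLA heavy chain gene was among the 12. The kept members MICA, MICB, RAET1E, ULBP1, ULBP2 and ULBP3 are stress ligands of natural killer cells and do not present antigen. The members of that list higher in KG1a were ULBP3 (2.65-fold) and the HLA light chain B2M (1.55-fold).

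Of 22 kept S100 and annexin genes, 15 were higher in MOLM14 and 4 in KG1a (86.4% called against 61.1% of all genes). ANXA4 and S100A10 were higher in MOLM14 by 57.7-fold and 7.49-fold, and S100A8, a subunit of the monocyte protein calprotectin, by 4.66-fold. ANXA1, an annexin that limits inflammation, was 9.19-fold and S100Z 13.6-fold higher in KG1a. Adhesion genes divided, 10 higher in KG1a and 7 in MOLM14 of 21 (81% called). NCAM1, also known as CD56, read 3.70, 3.52 and 3.73 in KG1a and 7.79, 7.74 and 8.01 in MOLM14, and ICAM1 was 5.10-fold higher in MOLM14. JAM3 and CD82 were higher in KG1a by 2.50-fold and 3.59-fold.

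Lymphoid and red cell genes were not confined to 1 line. Of 22 kept lymphoid markers, 7 were higher in KG1a and 6 in MOLM14 (59.1% called against 61.1% of all genes). KG1a was higher for CD69, an activation antigen (47.4-fold), and for perforin (PRF1, 6.94-fold). MOLM14 was higher for the B cell adaptor BLNK (5.16-fold) and the interleukin-7 receptor IL7R (4.87-fold). The T cell antigens CD2, CD5 and CD8A did not pass the test and lay between 3.89 and 4.39 in both lines. Of 8 red cell and platelet markers, RHAG alone differed by more than 4-fold. KLF1, the erythroid master factor, lay at 3.85 and 3.90.

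Genes driven by ATF4, the factor that cells use when amino acids run short or mitochondria are stressed, were mostly higher in MOLM14. Of 21 kept, 17 were higher in MOLM14 and 1 in KG1a (85.7% called against 61.1% of all genes). The median difference was -1.21. At 2-fold or more, 12 of the 21 were higher in MOLM14 and 0 in KG1a, against 8.78% and 9.97% of all genes. PHGDH, the first enzyme of serine synthesis, read 5.43, 5.27 and 5.34 in KG1a and 8.03, 8.01 and 7.90 in MOLM14, a 6.21-fold difference. VLDLR, the very low density lipoprotein receptor, was 29.3-fold higher in MOLM14, VEGFA 6.35-fold and the stress sensor SESN2 4.56-fold. Asparagine synthetase (ASNS) stood at 5.43 and 7.26, and PSAT1, the second enzyme of serine synthesis, at 9.52 and 10.6. ATF4 itself differed by much less, 8.49 against 8.81. The exception was ATF5, 1.72-fold higher in KG1a. SHMT2 and DDIT3 of this list, with CDK4, MARS1 and METTL1, lie in another series of 13 successive kept genes that were all higher in MOLM14 (median difference -1.44). The part of that neighbourhood in their differences was not tested. PHGDH and CTH are also among the genes whose difference changed with metformin.

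Cell cycle genes differed in both directions. Of 29 kept genes of DNA replication, 14 were higher in KG1a and 4 in MOLM14 (62.1% called against 61.1% of all genes), with a median difference of 0.20. Of 46 mitotic genes, 22 were higher in KG1a and 11 in MOLM14 (71.7% called), with a median of 0.21. Cyclin E1 (CCNE1) read 9.09, 9.20 and 9.17 in KG1a and 7.89, 7.82 and 7.87 in MOLM14, 2.45-fold higher in KG1a. It ends a series of 11 successive kept genes, most of them zinc finger genes, that were all higher in KG1a, whose part in the result was not tested. The replication factor subunit DSCC1 was 2.85-fold and the kinesin KIF18A 2.33-fold higher there. MCM7, AURKB and SKA3 were higher in MOLM14 by 1.68-fold, 1.80-fold and 2.29-fold. MKI67, the proliferation antigen Ki-67, did not pass the test, at 10.6 in both lines. Of the cyclin-dependent kinases, CDK4 (2.04-fold) and CDK2 (1.70-fold) were higher in MOLM14 and CDK6 (1.70-fold) in KG1a, with cyclin D2 (CCND2, 1.90-fold). CDK2 lies in the series TMT1B to PAN2 and CDK4 in that from SHMT2 to EEF1AKMT3, all higher in MOLM14. The part of those neighbourhoods was not tested.

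Of 19 kept p53 target genes, 10 were higher in MOLM14 and 4 in KG1a (73.7% called against 61.1% of all genes). SESN2, ACER2 (2.97-fold) and TP53I11 (2.71-fold) led on the MOLM14 side and TP53I3 (1.87-fold) on the KG1a side. BAX and BBC3, which p53 uses to trigger apoptosis, did not pass the test, at 6.15 against 6.30 and 4.33 against 4.45. The list of the BCL2 family and death receptors had 21 kept genes. Of these, 9 were higher in KG1a and 7 in MOLM14 (76.2% called against 61.1% of all genes). It also holds CFLAR and APAF1, which are not BCL2 proteins. The members named here, which are not the whole list, divided by function only in part. The antiapoptotic genes BCL2L1 (3.15-fold), BCL2A1 (3.42-fold), CFLAR (2.86-fold) and BCL2 (1.35-fold) were higher in KG1a, while MCL1 (2.00-fold) was higher in MOLM14. The proapoptotic BIK (7.43-fold), BCL2L11 (2.58-fold) and APAF1 (3.85-fold) were higher in MOLM14, and BAD (6.11 against 4.77) was higher in KG1a.

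Of 18 kept HOX genes and partners, 3 were higher in KG1a and 6 in MOLM14 (50% called against 61.1% of all genes). MEIS1, a HOX cofactor that KMT2A fusions activate, read 3.53, 3.46 and 3.58 in KG1a and 6.86, 6.82 and 6.74 in MOLM14, 9.72-fold higher in MOLM14. PBX3, another cofactor, was 2.94-fold and HOXC4 2.67-fold higher there. HOXB2 read 7.57, 7.58 and 7.30 in KG1a and 3.84, 3.39 and 3.77 in MOLM14, 14.1-fold higher in KG1a, and HOXA2 was 2.15-fold higher. Among 45 kept chromatin modifiers, 23 were higher in KG1a and 12 in MOLM14 (77.8% called against 61.1% of all genes). The DNA methyltransferase DNMT3B (6.05-fold), the demethylase TET1 (4.66-fold) and KDM5B (3.73-fold) were higher in KG1a. KDM7A (9.44-fold), KDM6B (3.76-fold) and EZH2 (1.86-fold) were higher in MOLM14.

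Of 36 kept genes of sterol and fatty acid synthesis, 18 were higher in KG1a and 6 in MOLM14 (66.7% called against 61.1% of all genes), with a median difference of 0.23. SQLE, the squalene epoxidase, read 9.89, 10.0 and 9.93 in KG1a and 7.35, 7.43 and 7.37 in MOLM14, 5.88-fold higher in KG1a. The fatty acid elongases ELOVL6 (7.31-fold) and ELOVL7 (4.50-fold) were also higher there. SREBF1, the factor that drives fatty acid synthesis, was 2.92-fold higher in MOLM14, with ACSS2 (2.48-fold) and ACACB (2.09-fold), while SREBF2, which drives sterol synthesis, was higher in KG1a (7.71 against 7.22). FASN did not pass the test, at 8.12 and 8.20.

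Zinc finger genes, many of which encode KRAB repressors of transposable elements, were the longest list after microRNA loci. Of 460 kept, 209 were higher in KG1a and 107 in MOLM14 (68.7% called against 61.1% of all genes). At 2-fold or more the counts were 90 and 25, against 9.97% and 8.78% of all genes. ZNF93 read 9.16, 9.13 and 8.95 in KG1a and 3.33, 3.50 and 3.78 in MOLM14. ZNF257 and ZNF681 differed by 33.9-fold and 24.8-fold, and HL60 and U937 were also near the floor for both. On the MOLM14 side were ZNF521 (26.0-fold), a progenitor cofactor seen in MOLM14 alone of the 4 lines, ZNF385A (18.8-fold) and ZNF215 (18.1-fold). The zinc finger genes arose by tandem duplication and are near-identical in part, so members of 1 cluster may share probe signal.

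**Figure D4:**
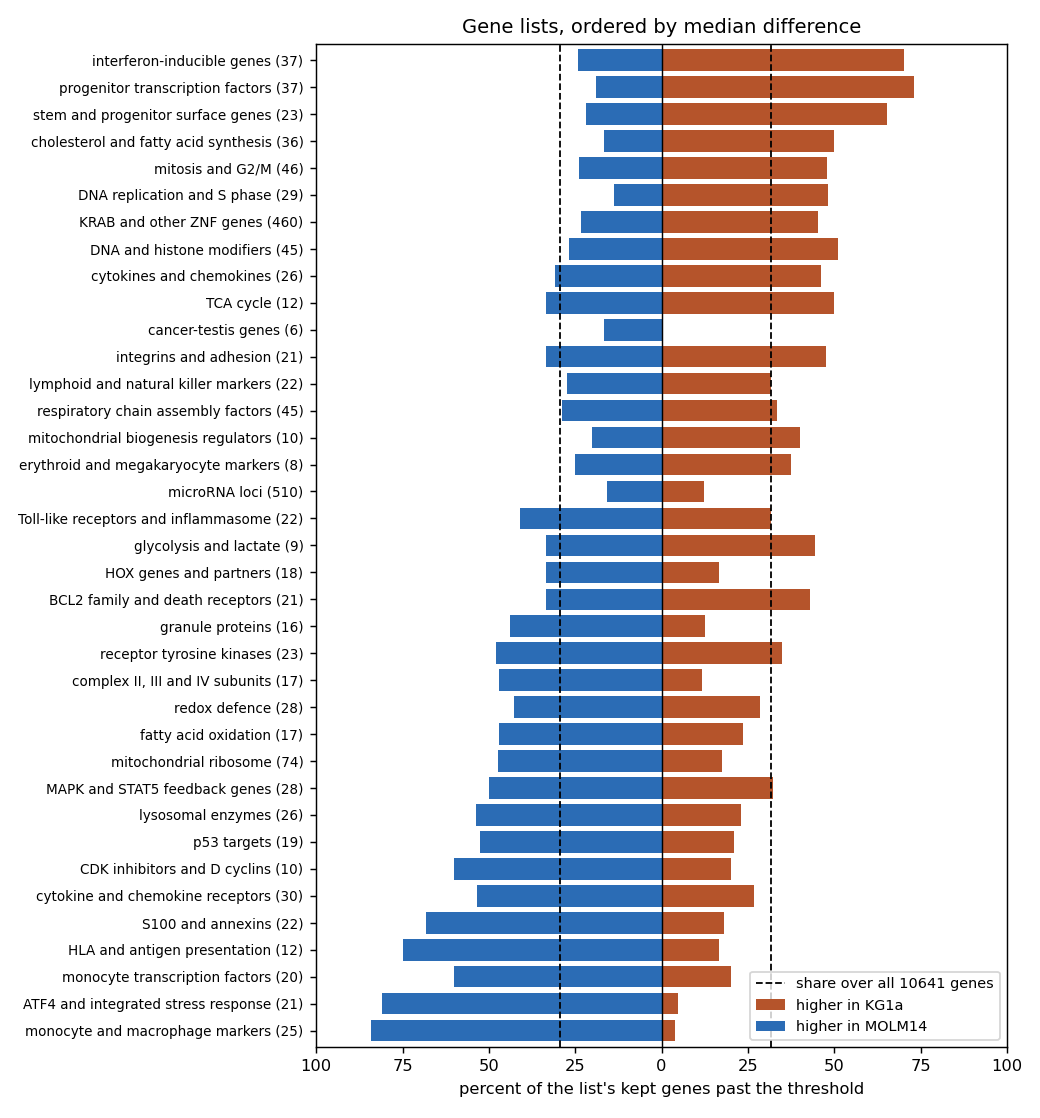
Percent of each list's kept genes (number in brackets) past the threshold in untreated KG1a against MOLM14, higher in KG1a to the right and higher in MOLM14 to the left, for lists with at least 6 kept genes. Dashed lines mark 31.6% and 29.5%, the shares over all 10641 genes. Interferon and progenitor lists extend farthest to the right, and monocyte and ATF4 lists to the left.

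At microRNA loci these arrays read the precursor or its surrounding transcript and not the mature form. Of 510 kept microRNA and microRNA host loci, 63 were higher in KG1a and 81 in MOLM14, 28.2% called against 61.1% of all genes. The 6 loci with the largest differences are shown by the mature RNAs that RefSeq (GRCh38.p14) lists for them, with the seed, bases 2 to 8, in capitals, because the seed sets which transcripts a microRNA can pair with. Higher in KG1a were MIR4500 (chr13:87618671-87618687, minus strand), MIR1299 (chr9:40929010-40929031, minus strand) and MIR4719 (chr16:76868988-76869009, plus strand).
hsa-miR-4500: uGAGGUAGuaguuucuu
hsa-miR-1299: uUCUGGAAuucugugugaggga
hsa-miR-4719: uCACAAAUcuauaauaugcagg

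Higher in MOLM14 were MIR378I (chr22:41923271-41923291, minus strand), MIR4653 (chr7:101159482-101159503 and chr7:101159524-101159546, plus strand) and MIR223 (chrX:66018895-66018916 and chrX:66018937-66018958, plus strand).
hsa-miR-378i: aCUGGACUaggagucagaagg
hsa-miR-4653-5p: uCUCUGAGcaaggcuuaacacc
hsa-miR-4653-3p: uGGAGUUAaggguugcuuggaga
hsa-miR-223-5p: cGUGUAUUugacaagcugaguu
hsa-miR-223-3p: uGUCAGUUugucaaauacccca

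No seed was shared among these 8 mature RNAs. The seed of miR-4500 is that of let-7 and was found in 10 other mature microRNAs of the table, and the seed of miR-378i in 6. MIR4500 read 8.26, 7.73 and 7.87 in KG1a and 3.28, 3.37 and 3.30 in MOLM14, a 25.0-fold difference. MIR1299 read 8.50, 8.26 and 7.99 against 4.19, 4.59 and 4.48, and had the larger SE of 0.32. MIR223, the microRNA of granulocyte and monocyte precursors, read 4.58, 4.59 and 4.49 in KG1a and 7.79, 7.67 and 7.61 in MOLM14, 8.80-fold higher in MOLM14. The arrays of the 2 lines did not overlap at these loci. U937 averaged 7.79 and HL60 6.25 for MIR223, so KG1a was again the lowest of the 4. Among loci with an antisense or LOC symbol, ZNF667-AS1 (36.0-fold) and the transcribed pseudogene LOC650226 (32.6-fold) were higher in KG1a and ZEB2-AS1 (13.3-fold) and LOC283683 (12.1-fold) in MOLM14. ZEB2-AS1 lies antisense to ZEB2, which was higher in the same line, and its probes cannot be taken as separate evidence where strand is not known.

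The same contrast in the metformin-treated arrays gave nearly the same differences. Those arrays did not enter the untreated means. Both contrasts shared the variance estimate, the choice of row and the filter, so their calls are not independent. Metformin is an inhibitor of complex I of the respiratory chain. With metformin, 6607 of 10641 genes (62.1%) passed the test, and 5726 of the 6497 genes called without it were called again in the same direction. Of the 1995 genes with an untreated difference of at least 2-fold, 1991 were called again in the same direction. Differences of at least 2-fold numbered 2088 (19.6%) with metformin, 1049 higher in KG1a (9.86%) and 1039 higher in MOLM14 (9.76%). Across the 10641 genes, which are not independent replicates, the differences with and without metformin correlated at 0.98. All 30 leading genes, 15 in each direction, were called again the same way. CD34 differed by 7.84 with metformin and PRTN3 by -8.60.

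The difference itself changed with metformin at 112 genes (1.05%), toward KG1a at 60 (0.564%) and toward MOLM14 at 52 (0.489%), by a test of the interaction. Leaving out any 1 KG1a or MOLM14 array lowered the total. It was 58 without untreated KG1a replicate A or metformin-treated MOLM14 replicate A, and between 62 and 87 without any other of these arrays. The change was at least 2-fold at 12 of the 112 genes (0.113%), 7 toward KG1a (0.0658%) and 5 toward MOLM14 (0.047%). Metformin itself changed 265 genes in KG1a (2.49%) and 538 in MOLM14 (5.06%). For 75 of the 112 the metformin response was called in MOLM14 alone, for 26 in KG1a alone, for 3 in both and for 8 in neither. VNN1, a pantetheinase of monocytes, had the largest change toward KG1a, from -1.38 to 0.06. MNDA went from -3.30 to -1.96, MPO from -5.67 to -4.39, and ANXA1 from 3.20 to 4.34. MCEMP1, a membrane protein of mast cells and monocytes, went from -5.31 to -4.18. For VNN1, MNDA, MPO, ANXA1 and MCEMP1 the signal fell in MOLM14, by 1.34, 1.22, 1.32, 1.06 and 0.80 on the log2 scale, and the KG1a response did not pass the test.

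Toward MOLM14, CTH, the enzyme that makes cysteine from cystathionine, changed most. Untreated it read 5.33, 5.07 and 5.49 in KG1a and 5.26, 5.32 and 5.34 in MOLM14, which overlapped, and with metformin the difference was -1.56. ATF5 went from 0.79 to -0.45 and so changed sides. IL31RA, a cytokine receptor chain, went from -1.69 to -2.92, KDM7A from -3.24 to -4.26, and the zinc finger gene ZFP69B from -0.23 to -1.33. For CTH, ATF5, IL31RA, KDM7A and ZFP69B the signal rose in MOLM14 by 1.26, 1.11, 1.13, 1.17 and 0.83, and the KG1a response did not pass the test. The ZFP69B change lost its call without untreated KG1a replicate C, metformin-treated KG1a replicate A, untreated MOLM14 replicate A or B, or metformin-treated MOLM14 replicate A, or with a fit on these 4 groups alone, with adjusted p from 0.0555 to 0.0839.

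**Figure D5:**
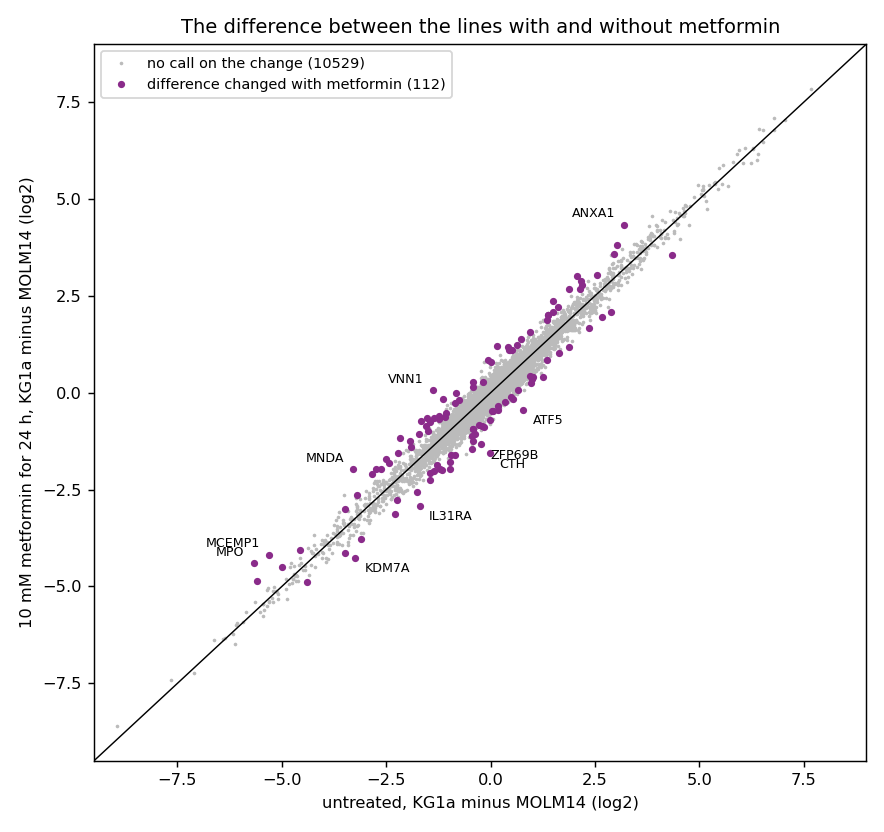
Difference between KG1a and MOLM14 (log2, positive where KG1a is higher) in untreated arrays (x axis) and in arrays given 10 mM metformin for 24 h (y axis) for 10641 genes, with the 112 genes whose difference changed in purple. Most genes lie along the line of equal difference. The 5 largest changes in each direction are labelled.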

How the data were processed

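Total RNA of 4 cell lines was hybridised to 24 Affymetrix whole-transcript arrays, 3 per condition. The deposited values are log2 signal, made by the authors with Partek per the submitters' processing notes. Background correction, normalization and genome build were not given in the sources used here, and the number of arrays limits the precision. Of 53617 array features, 16098 had 1 gene symbol and 37519 had none. Where a gene had several (779 genes), the one with the highest mean over all 24 arrays was used. Genes were kept if 1 of 8 group means reached 4.02, the median of all values, which left out 4243.

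The 8 group means were fitted in limma 3.58.1 (R 4.3.3) with moderated variances and 16 residual degrees of freedom, with Benjamini-Hochberg adjustment across the 10641 kept genes and a threshold of 0.05. The change with metformin was an interaction contrast. On simulated data for the untreated comparison over 10641 genes, 72 of 100 genes changed by 0.5 and 99 of 100 changed by 1 on the log2 scale were recovered, with 7 false calls among 178. Only those genes differed in the simulation, a far smaller share than the 61.1% called in the data. Its rates therefore need not hold for the real comparison. Deviations of arrays with the same replicate letter correlated at -0.11, 0.048 and -0.071, so the letters were not taken to pair the lines.

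Named genes were the 15 largest differences in each direction with arrays that do not overlap, the 3 largest in each direction among loci whose symbols mark them as non-coding (MIR, LOC, antisense and the like, so that KIAA0087 counted with the genes), up to 3 called members of each list in each direction, a set of genes named whatever their values, and the 5 largest changes with metformin in each direction. Other list members named, and the motifs, were chosen after values were seen. The members and lists were chosen with earlier results of these data known. Alternatives were quantile normalization, median centring, other filters, moderation with a trend, a replicate block, fits on fewer arrays and leaving out each array. Python 3.11.15, numpy 2.4.6, pandas 2.3.3 and matplotlib 3.10.9 were used for sequences and figures.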

Additional observations from a re-analysis of the deposited data

Results flagged for a closer look

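For 112 genes the difference between KG1a and MOLM14 changed with metformin by a test of the interaction, and 19 of them are named here. The change was toward KG1a for VNN1 (1.44), MNDA (1.34), MPO (1.28), ANXA1 (1.14), MCEMP1 (1.13), GPR183 (0.72), PHGDH (0.67), S100A8 (0.66), CSF1R (0.65), the replication factor E2F8 (0.56), CD36 (0.51) and SQLE (0.48), all on the log2 scale. It was toward MOLM14 for CTH (-1.55), ATF5 (-1.23), IL31RA (-1.23), ZFP69B (-1.10), KDM7A (-1.03), the receptor kinase ROR1 (-0.61) and the platelet collagen receptor GP6 (-0.59). The calls of SQLE, ROR1, GP6, ZFP69B, E2F8, CSF1R, CD36 and S100A8 were each lost on leaving out 1 of several single arrays. CD36 also lost its call with the replicate block, moderation with a trend, no filter, median centring and a fit on these groups alone (adjusted p from 0.056 to 0.0719), SQLE with median centring (0.0782), and CSF1R and ZFP69B with a fit on these groups alone (0.0739 and 0.07). With 3 arrays per group, no test for single outlying arrays was run.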

How the results depend on the processing

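The untreated count of 6497 ranged from 6167 to 6229 on leaving out 1 of the 6 arrays and was 6498 with a replicate block, 6596 after quantile normalization and 6375 after median centring. Of the 249 genes that the naming rule chose, 240 kept their direction and call in every alternative run (ISG15 and other list members named outside that rule were not followed singly); the others were POLK, UQCRB, LDHA, PGK1, TLR4 and CTAG2, which lost calls, ZFP69B, which gained one, and CTH and KIT, which were not called and changed sign. CTH was 0.0158 after quantile normalization and 0.0067 without MOLM14 replicate C, and ranged from -0.1062 to 0.1047 (without KG1a replicate C and B) on leaving out 1 array. KIT was 0.0061 without KG1a replicate A and 0.0443 without MOLM14 replicate C, in a range from -0.1996 to 0.0443. Requiring a 2-fold difference left 1995 untreated genes (1061 and 934), 2088 with metformin (1049 and 1039), 1334 between HL60 and U937, and 12 changed with metformin (7 and 5). The count changed with metformin was the least stable: 112 became 33 (18 and 15) at an adjusted p of 0.01, 96 with the replicate block, 75 after median centring (37 toward KG1a), and 58 (without untreated KG1a replicate A) to 87 (without untreated MOLM14 replicate C) on leaving out 1 array, 29 to 44 toward KG1a and 26 to 43 toward MOLM14. Without 3 HL60 and U937 arrays that stand apart, 166 changed, 81 toward KG1a and 85 toward MOLM14, and the untreated count was 6748. Those 3 arrays enter no KG1a or MOLM14 mean. Leaving them out kept every difference as it was and altered only the shared variance estimate. Calls between KG1a and MOLM14 thus depend in part on the spread of arrays of the other lines. The causes of the other shifts were not tested. Signal near the floor of the array limits folds, which are then too small.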

Other observations

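Some protein-coding genes set 1 line apart from the other 3. With a mean of at least 7 on 1 side and under 4.02 on the other, 56 of 9137 genes were high in KG1a alone, among them CD34, CD96, TRPS1 and STAT4, a factor of interleukin-12 signalling. In MOLM14 alone 14 were high, among them FLT3, NCAM1, NCAM2, MMP14 and MPEG1, a pore-forming protein of macrophages. KG1a alone was low for 22, among them PRTN3, CTSG, LYZ, BTK and the deubiquitinases USP15 and USP22, and MOLM14 alone was low for PROSER1, CD69, TARP and GTSF1.

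Called genes also lay side by side. Among 9133 kept protein-coding genes in RefSeq order, 20 series of at least 10 successive genes were called in the same direction, 13 higher in KG1a and 7 higher in MOLM14, with 248 genes in all. ESR2 to TTC9 held 19 genes higher in KG1a with a median difference of 1.56, and MPZL3 to NLRX1 held 16 with a median of 0.92. CRYBG1 to AFG1L held 11 genes higher in MOLM14 with a median of -0.94. Zinc finger clusters formed 2 of the steepest, ZNF101 to ZNF85 (3.23) and ZNF43 to CCNE1 (2.93), higher in KG1a. These patterns were chosen after their values were seen, and copy number was not measured.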
